A study of Mus musculus with 221 samples.

Results

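Transcripts of 10 antioxidant enzymes were followed in single early 2-cell mouse embryos. The members were chosen by name, as listed enzymes that remove superoxide and peroxide or belong to the thioredoxin system. All 10 of them (Sod1, Sod2, Cat, Gpx1, Gpx4, Prdx1, Prdx2, Prdx3, Prdx5 and Txn2) were found among the 55291 genes of the count table. The choice set no threshold on a measured value. All 10 passed the filter on low counts, so every member was tested.

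The embryos were made by in vitro fertilization. Frozen and thawed sperm came from young C57BL/6N males kept for a short time on food rich in fat (high-fat diet, HFD) or poor in it (low-fat diet, LFD), with a few males for each diet and 1 male of each diet on a fertilization date. Every oocyte donor was a superovulated female of the C57BL/6N-mtST strain, which carries a C57BL/6N nuclear genome and the mitochondrial DNA of the Staudach (ST) line, so all embryos of both groups share that maternal mitochondrial genome. Each library held the polyadenylated RNA of 1 whole embryo, and 99 LFD-sired embryos and 23 more HFD-sired ones than that were compared to see whether transcript levels in the embryo go with what the father ate. The labels name neither the sire nor the date of an embryo, so the p-values count embryos and differences between the few sires cannot be told apart from the diet. In such libraries a higher number of copies of an mRNA and a lower amount of the other RNA cannot be told apart.

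Superoxide, a by-product of electron transport in mitochondria, is turned into hydrogen peroxide by superoxide dismutases. Catalase, glutathione peroxidases and peroxiredoxins then reduce the peroxide, and thioredoxins hand electrons to many peroxiredoxins. In the early mouse embryo many mRNAs are stored from the oocyte, and the major wave of transcription from the embryo's own genome begins at the 2-cell stage.

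Total counts ran from 1937251 to 17246791 per embryo with a median of 5706066, and 11364 to 21638 genes had a count. Oocyte-stored transcripts (14 of 14 listed genes that the table holds) and 2-cell-stage transcripts (21 of 21) were detected in both groups, which checks the labelled stage. Markers of macrophages stood apart in part of the HFD embryos. Their summed level reached 6845 CPM (counts in each 1000000 of a library) in HFD but 156 CPM in LFD embryos, with medians of 79.9 and 78.3 CPM, and the 11 embryos with the highest sums, 5% of all libraries, were all HFD. Of the 16 markers listed, 6 (C1qa, C1qc, Adgre1, Tyrobp, Fcer1g and Ptprc) had a median of 0 in both diets. These medians are over all embryos of a diet and do not describe the 11 embryos with the highest sums. Summed markers of cumulus cells reached 180 CPM in HFD and 59.5 CPM in LFD embryos with medians under 20 CPM, and 5 of 7 sperm markers had a median of 0 in both diets. The labels do not give the sex of an embryo. Summed Y-linked transcripts had medians of 42.8 CPM in HFD and 11.4 CPM in LFD embryos, so the mix of sexes may differ between the diets. With the Y-linked level as a covariate, 0 members were called between the diets.

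The peroxiredoxins spanned most of the range of levels, with only Cat below the lowest of them. Per kilobase of exon, the order of medians over all embryos was Prdx2 (236 CPM per kb), Prdx1 (125.6), Prdx5 (69.9), Gpx1 (52.9), Txn2 (26.5), Gpx4 (19.8), Sod1 (15.8), Sod2 (10.8), Prdx3 (1.38) and Cat (0.373). Exon length merged all annotated exons of a gene, 10008 bases for Sod2, whose longest transcript has 5861. The order of Sod1 and Sod2 therefore depends on the length used. Prdx2 stood above Prdx1 in 193 embryos and Prdx1 above Prdx5 in 206, and Sod2 stood above Prdx3 in all but 2. Other neighbours overlapped more: Prdx5 exceeded Gpx1 in 144 embryos, Txn2 exceeded Gpx4 in 141, Gpx4 exceeded Sod1 in 146 and Prdx3 exceeded Cat in 132, so the order within these pairs did not hold in many single embryos. Prdx2 and Prdx1 together gave most of the counts of the members, with 41.4% and 24.5% of their summed CPM.

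Sod1 (chromosome 16, 90220754 to 90226329, plus strand, GRCm38 as in the count table) encodes the copper and zinc dismutase of the cytosol and the space between the mitochondrial membranes. It ran from 15.1 through a median of 63.8 to 316 CPM in LFD embryos and from 9.33 through 60.99 to 199 CPM in HFD embryos. Sod2 (chromosome 17, 13006846 to 13040063, plus strand) encodes the manganese dismutase of the mitochondrial matrix. Its lowest, median and highest levels were 47.3, 107.9 and 216 CPM in LFD and 37.7, 108.1 and 400 CPM in HFD embryos. Both dismutases overlapped between the diets, with the highest Sod1 level in an LFD embryo and the highest Sod2 level in HFD embryo 28.

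Cat (chromosome 2, 103453849 to 103485160, minus strand) encodes the peroxisomal catalase, which splits hydrogen peroxide without a thiol donor. It was listed at 0 in 34 LFD and 44 HFD embryos, with medians of 1.17 and 0.961 CPM and highest levels of 8.73 and 45.8 CPM. At a median total of 5706066 counts the typical embryo therefore gave only a few Cat reads, and differences within the lower part of its range were not detectable at this depth.

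Gpx1 (chromosome 9, 108338903 to 108340343, plus strand) encodes the main glutathione peroxidase of cytosol and mitochondria. It ran from 11.7 through 77.3 to 220.8 CPM in LFD and from 7.65 through 75.8 to 473 CPM in HFD embryos. Gpx4 (chromosome 10, 80047166 to 80056439, plus strand) encodes the peroxidase that acts on lipid hydroperoxides in membranes. Its lowest, median and highest levels were 4.45, 35.1 and 115.2 CPM in LFD and 0.998, 33.9 and 99.6 CPM in HFD embryos. These were the most variable of the well detected members. The standard deviation (SD) of log2 CPM within diets was 0.92 for Gpx1 and 0.82 for Gpx4, higher than in 45.5% and 37.4% of all tested genes.

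Prdx2 (chromosome 8, 84969587 to 84974834, plus strand), a cytosolic peroxiredoxin that is abundant in red cells, was the steadiest member. It ran from 454 through 735 to 1088 CPM in LFD and from 398 through 709 to 1063 CPM in HFD embryos. Its SD of 0.29 on the log2 scale was higher than that of only 0.499% of tested genes, the median gene having 0.98. Prdx2 also had the highest mean log2 CPM of the members (9.47), and SDs were not compared among genes of like level. Prdx1 (chromosome 4, 116685544 to 116700822, plus strand), the other typical cytosolic peroxiredoxin of the list, ran from 134 through 371 to 1085 CPM in LFD and from 158 through 386 to 1027 CPM in HFD embryos, with an SD of 0.58.

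Prdx5 (chromosome 19, 6906697 to 6910106, minus strand) encodes an atypical peroxiredoxin of mitochondria, peroxisomes and cytosol. It ran from 100.96 through 153 to 648 CPM in LFD and from 95.8 through 145 to 338 CPM in HFD embryos, and the highest level, in LFD embryo 73, lay far above the LFD upper quartile of 170 CPM. Prdx3 (chromosome 19, 60864051 to 60874556, minus strand) and Txn2 (chromosome 15, 77915047 to 77929006, minus strand) encode the peroxiredoxin and the thioredoxin of the mitochondrial matrix, which work as a pair. Txn2 ran from 46.9 through 114.95 to 207 CPM in LFD and from 33.7 through 108.5 to 411 CPM in HFD embryos. Prdx3 was listed at 0 in 19 LFD and 31 HFD embryos, with medians of 2.03 and 2.07 CPM and highest levels of 11.4 and 16.4 CPM. The mRNAs of this matrix pair thus differed widely in level, at 26.5 CPM per kb for Txn2 against 1.38 for Prdx3.

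**Figure D1:**
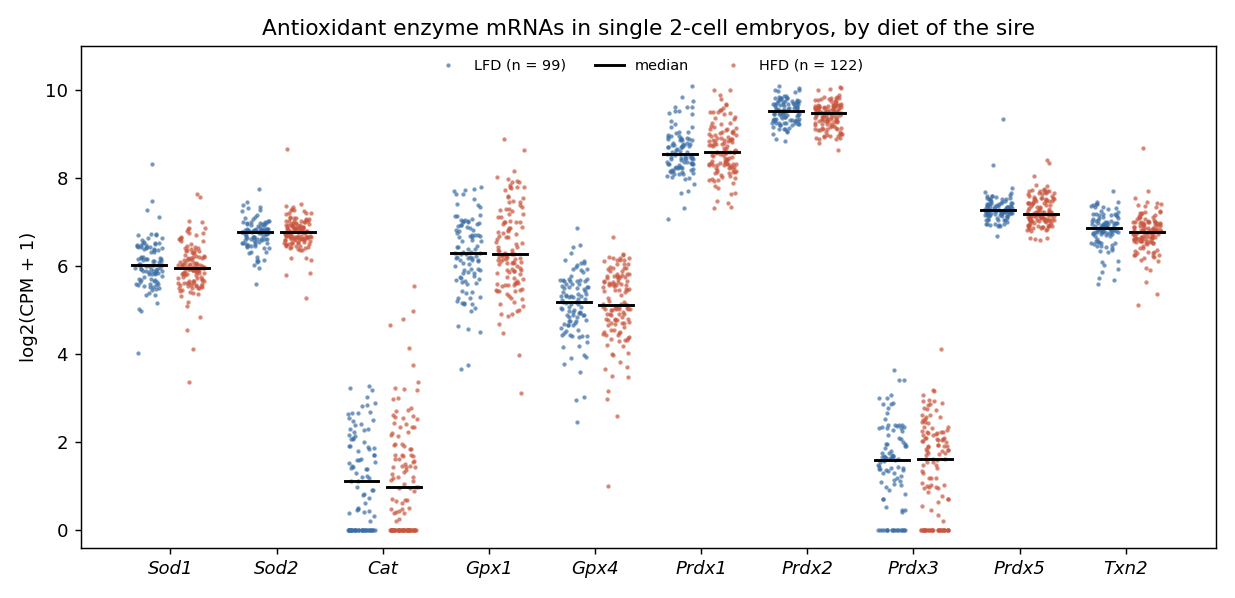
Level of each enzyme mRNA, as log2(CPM + 1), in LFD (blue, n = 99) and HFD (red) embryos; each point is 1 embryo and black bars are medians. The diets overlap for every member, and Cat and Prdx3 are listed at 0 in many embryos.

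No member was called between the diets. Of the 10 mRNAs, 0 passed a false discovery rate (FDR) of 0.05 in edgeR's quasi-likelihood test with Benjamini-Hochberg adjustment over all tested genes, against 314 of 14820 genes, or 2.12%, in the whole table. At an unadjusted p under 0.05 the count was again 0, against 1890 genes. DESeq2 and limma-voom also called 0 members, with 1 and 0 members at an unadjusted p under 0.05, and DESeq2 gave 2 members no adjusted p. The median log2 fold change of the members, HFD over LFD, was 0.04, beside 0.00 over all genes tested, and 6 of the 10 were positive, beside 51.3% of all genes.

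The intervals give the precision behind these values. For the most precisely measured members the log2 fold change was -0.05 for Prdx2 (95% interval -0.13 to 0.03), -0.03 for Prdx5 (-0.13 to 0.07), -0.01 for Txn2 (-0.13 to 0.11) and 0.08 for Sod2 (-0.02 to 0.19). Sod1 (-0.06, -0.22 to 0.10), Prdx1 (0.10, -0.06 to 0.25) and Gpx4 (0.04, -0.16 to 0.24) were wider. Gpx1 had the smallest p, with 0.24 (standard error, SE, 0.12, interval -0.0018 to 0.48, unadjusted p = 0.053 and adjusted p = 0.40 by edgeR). For the rarely counted members the intervals were too wide to limit a change, at 0.62 (-0.04 to 1.28) for Cat and 0.03 (-0.48 to 0.55) for Prdx3. The sign of Sod1, Gpx4, Prdx3, Prdx5 and Txn2 turned under at least 1 other setting, each time without a call.

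The larger positive values of Cat and Gpx1 moved with the macrophage markers. In the 11 HFD embryos with the highest marker sums, the median of Gpx1 was 210 CPM, against 72.8 CPM in the other HFD and 77.3 CPM in the LFD embryos. Gpx4 stood at 61.1, 31.96 and 35.1 CPM in the same order, and Cat at 8.15, 0.851 and 1.17 CPM. The remaining members lay closer together, such as Prdx2 at 623, 721 and 735 CPM. Without those 11 embryos the log2 fold change was 0.11 for Gpx1 and 0.05 for Cat. The highest Cat level, in HFD embryo 71, took the log2 ratio of mean CPM from 0.62 to 0.43 when left out.

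A fixed range of HFD embryo numbers was also looked at, and its levels stood apart for Prdx3 and Prdx5. The bounds of this range were not set by a test. In HFD embryos 31 to 70 (n = 38) the median of Prdx3 was 0.280 CPM, against 2.46 CPM in the other 84 HFD and 2.03 CPM in the LFD embryos, and that of Prdx5 was 180, against 140 and 153 CPM. The other members differed less in proportion, such as Gpx1 at 77.5, 74.2 and 77.3 CPM in the same order. Prdx3 had few reads in any group, and these differences were not tested. What the numbers stand for is not stated. The diets were also compared within 11 ranges of 10 numbers that held both, on the scale of mean log2(CPM + 1). Gpx1 was higher in HFD embryos in 9 ranges, Prdx1 in 8, and Sod2, Cat and Prdx3 in 6 each. For Gpx4, Prdx5 and Txn2 this held in 4 ranges each, for Prdx2 in 3 and for Sod1 in 2.

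The wider antioxidant system held 1 call. Of 53 further genes for glutathione, thioredoxin, NADPH, iron storage and the Nrf2 response, 46 passed the filter and this gene, or 2.17%, was called between the diets, beside 2.12% of all genes. This was Fth1, the heavy chain of the iron store ferritin, at a median of 277 CPM in HFD and 267 CPM in LFD embryos (log2 fold change 0.42, adjusted p = 0.017 by edgeR). The diets stood apart at the upper end of Fth1, where HFD embryos reached 2517 and LFD embryos 1012 CPM, and without the 11 embryos with high macrophage markers the log2 fold change was -0.01 (adjusted p = 0.99 by edgeR). The light chain gene Ftl1 followed with 0.32 (adjusted p = 0.087). Next by p were Txnrd3, a thioredoxin reductase (-0.35), Glrx5, a mitochondrial glutaredoxin (-0.23), Gclm, the modifier subunit of glutathione synthesis (-0.28), and Gpx3, the secreted glutathione peroxidase (0.12), with adjusted p of 0.24, 0.25, 0.25 and 0.29 by edgeR.

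**Figure D2:**
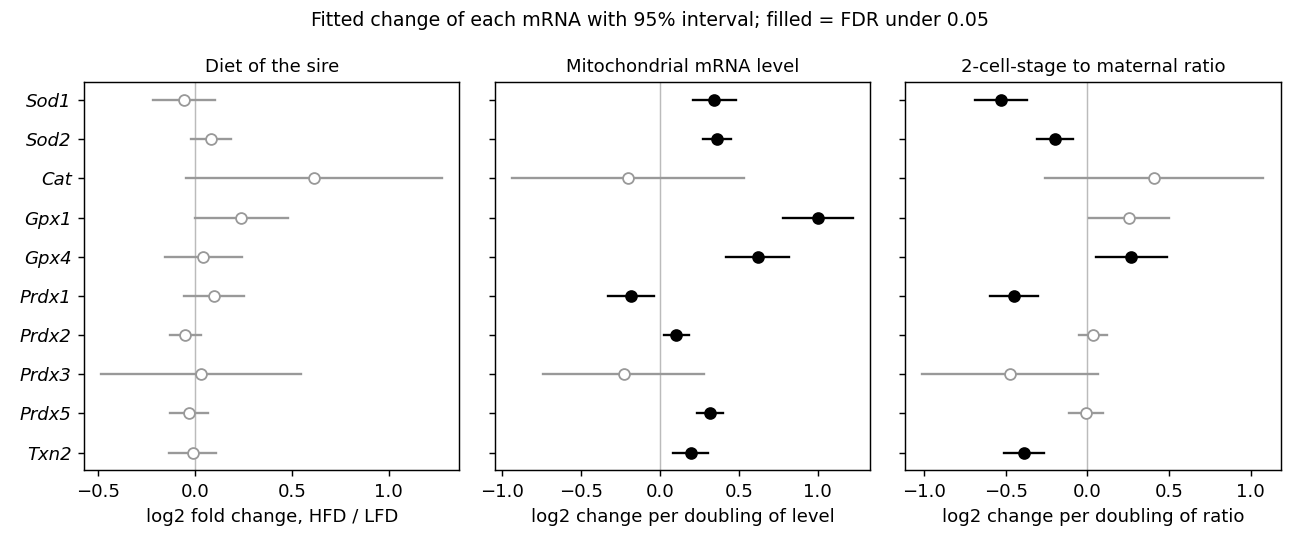
Fitted log2 change of each mRNA with the diet of the sire (left), per doubling of the mitochondrial mRNA level (middle) and per doubling of the 2-cell-stage to maternal ratio (right); bars are 95% intervals and filled points have an FDR under 0.05. No point is filled for the diet, 8 are for the mitochondrial level and 5 are for the ratio.

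Variation among embryos of the same diet was examined next, first beside the mitochondrial transcripts. The level of the 13 mRNAs encoded by mitochondrial DNA was summed in each embryo, and a slope was fitted for each gene with the diet as a covariate and library sizes without mitochondrial counts. The log2 sum was 15.53 ± 0.47 (SD) in HFD and 15.17 ± 0.48 (SD, n = 99) in LFD embryos. A slope of 1 means that an mRNA doubles when the mitochondrial sum doubles. Of the 10 members 8 were called, of which 7 rose and Prdx1 fell with the level. Over all 14805 tested genes 34.7% were called, 18.1% positive and 16.6% negative, so calls were common, and the median slope was 0.25 over the members and 0.02 over all genes.

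The glutathione peroxidases had the steepest slopes. That of Gpx1 was 1.002 (SE 0.11, adjusted p = 8.1e-14 by edgeR) and that of Gpx4 was 0.62 (SE 0.10, adjusted p = 1.6e-07). In the embryo with the least mitochondrial mRNA, LFD embryo 45, Gpx1 stood at 30.7 and Gpx4 at 10.98 CPM, and in the embryo with the most, HFD embryo 28, they stood at 473 and 99.6 CPM. Without HFD embryo 28 the slopes were 0.95 and 0.58, and within HFD and LFD embryos alone that of Gpx1 was 0.97 and 1.09 and that of Gpx4 0.52 and 0.81.

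Both dismutases also rose with the mitochondrial level, Sod2 with a slope of 0.36 (SE 0.05, adjusted p = 2.1e-11 by edgeR) and Sod1 with 0.34 (SE 0.07, adjusted p = 2.2e-05). The slope of Sod2, whose product works in the matrix, was 0.25 without HFD embryo 28. That of Sod1 was no longer called without the 8 libraries with fewer than 15000 genes (0.13, adjusted p = 0.16). Prdx5 rose by 0.31 (SE 0.04, adjusted p = 1.7e-10) and stayed called in all 13 other settings.

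The remaining calls were small and rested on few embryos or on the setting. Txn2 had a slope of 0.19 (adjusted p = 0.0044 by edgeR) that was 0.06 without HFD embryo 28 (adjusted p = 0.50). Prdx2 had 0.10 (adjusted p = 0.040), not called without HFD embryo 28 (0.08, adjusted p = 0.13) or without LFD embryo 73 (0.09, adjusted p = 0.066). Prdx1 was the only member with a called negative slope, at -0.19 (adjusted p = 0.040), and was called in 9 of 13 other settings. Cat (-0.20, SE 0.38) and Prdx3 (-0.23, SE 0.26) were too sparse for a call. Among the matrix enzymes the fitted slopes were 0.36 for Sod2, 0.19 for Txn2 and -0.23 for Prdx3, and differences between these slopes were not tested.

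**Figure D3:**
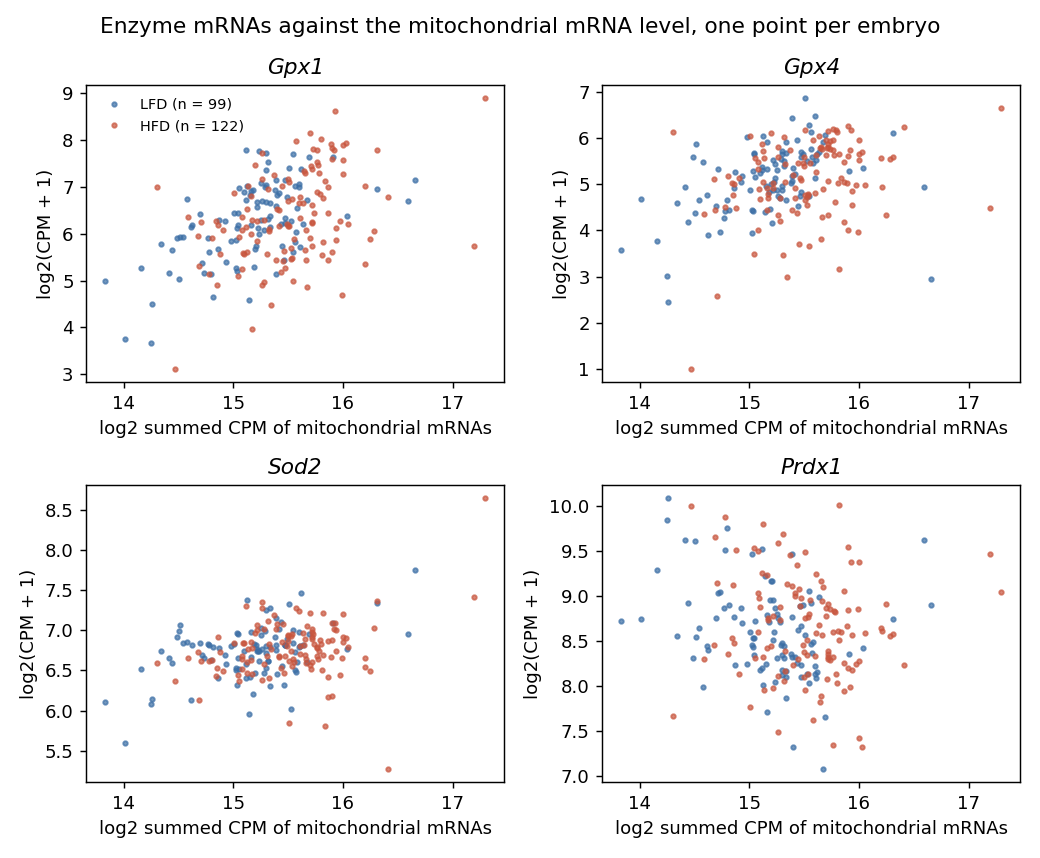
Level of Gpx1, Gpx4, Sod2 and Prdx1, as log2(CPM + 1), against the log2 summed CPM of 13 mitochondrial mRNAs in all embryos (LFD blue, HFD red). Gpx1 and Gpx4 climb with the mitochondrial level, Sod2 does so less steeply, and Prdx1 falls slightly; the embryo farthest to the right for all is HFD embryo 28.

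Short transcripts shared this direction. Among 1598 tested genes whose longest annotated transcript is under 1000 bases, 33.9% had a called positive slope and 7.70% a called negative one, whereas among 4718 genes with transcripts of 4000 bases or more the shares were 12.2% and 21.2%. The longest transcripts of Gpx4 and Gpx1 have 995 and 1072 bases, that of Prdx1 2294 and that of Sod2 5861 bases. Over 14527 genes Spearman's rho of slope and length was -0.23, as a description across genes that are not independent. The part of transcript length in the slopes was not tested.

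Of the further antioxidant genes, 14 of 46 had a called slope on the mitochondrial level, 10 positive and 4 negative, or 30.4% beside 34.7% of all genes. Fth1 (0.60) and Ftl1 (0.58) rose with it, with adjusted p of 4.2e-07 and 3.1e-07 by edgeR. Of the genes named above by p for the diet, Txnrd3 (-0.27), Glrx5 (0.06), Gclm (0.13) and Gpx3 (0.13) had no call.

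Embryos labelled as early 2-cell can stand at different points of genome activation. As a measure of it, the summed CPM of 2-cell-stage transcripts was divided by that of oocyte-stored transcripts, and the log2 ratio ran from -4.15 to 0.37 with means of -1.82 ± 0.52 (SD) in HFD and -1.88 ± 0.37 (SD, n = 99) in LFD embryos. Of the 10 members 5 were called for a slope on this ratio, 4 negative and 1 positive. Over all 14787 tested genes 42.4% were called, 20.6% positive and 21.9% negative, and the median slope was -0.10 over the members and -0.03 over all genes.

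Sod1, Prdx1 and Txn2 fell as the ratio rose. The slope was -0.53 for Sod1 (SE 0.08, adjusted p = 9.8e-09 by edgeR), -0.45 for Prdx1 (SE 0.07, adjusted p = 1.1e-07) and -0.39 for Txn2 (SE 0.06, adjusted p = 4.1e-08). In the embryo with the lowest ratio, HFD embryo 110, Sod1 stood at 96.9, Prdx1 at 821 and Txn2 at 105.8 CPM, and in that with the highest, HFD embryo 64, they stood at 16.4, 300 and 60.9 CPM. Sod1 and Prdx1 stayed called in all 13 other settings, and Txn2 in all but the LFD embryos alone (-0.25, adjusted p = 0.12).

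The others depended on single embryos. Sod2 had a slope of -0.20 (adjusted p = 0.0024 by edgeR), which was -0.04 without HFD embryo 28 (adjusted p = 0.56) and 0.01 in LFD embryos alone (adjusted p = 0.97). Gpx4 had 0.27 (adjusted p = 0.039), not called without HFD embryo 64 (0.24, adjusted p = 0.095) or LFD embryo 83 (0.22, adjusted p = 0.092) but 0.49 without HFD embryo 28 (adjusted p = 0.00028). Gpx1 was not called, with 0.26 (adjusted p = 0.087), yet was without HFD embryo 28 (0.66, adjusted p = 1.6e-05). HFD embryo 28 held the highest Gpx1, Sod2 and Txn2 level of all embryos. Prdx2 (0.03), Prdx5 (-0.01), Cat (0.41) and Prdx3 (-0.47) had no call. The ratio itself moved with the number of genes detected (Pearson r = -0.40 over all embryos, as a description of libraries that differ in depth). With the number of genes as a covariate the slopes of Sod1 (-0.62), Prdx1 (-0.56), Txn2 (-0.41), Sod2 (-0.23) and Gpx4 (0.30) stayed called by edgeR. Prdx5 was then called too (-0.17, adjusted p = 0.0016).

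**Figure D4:**
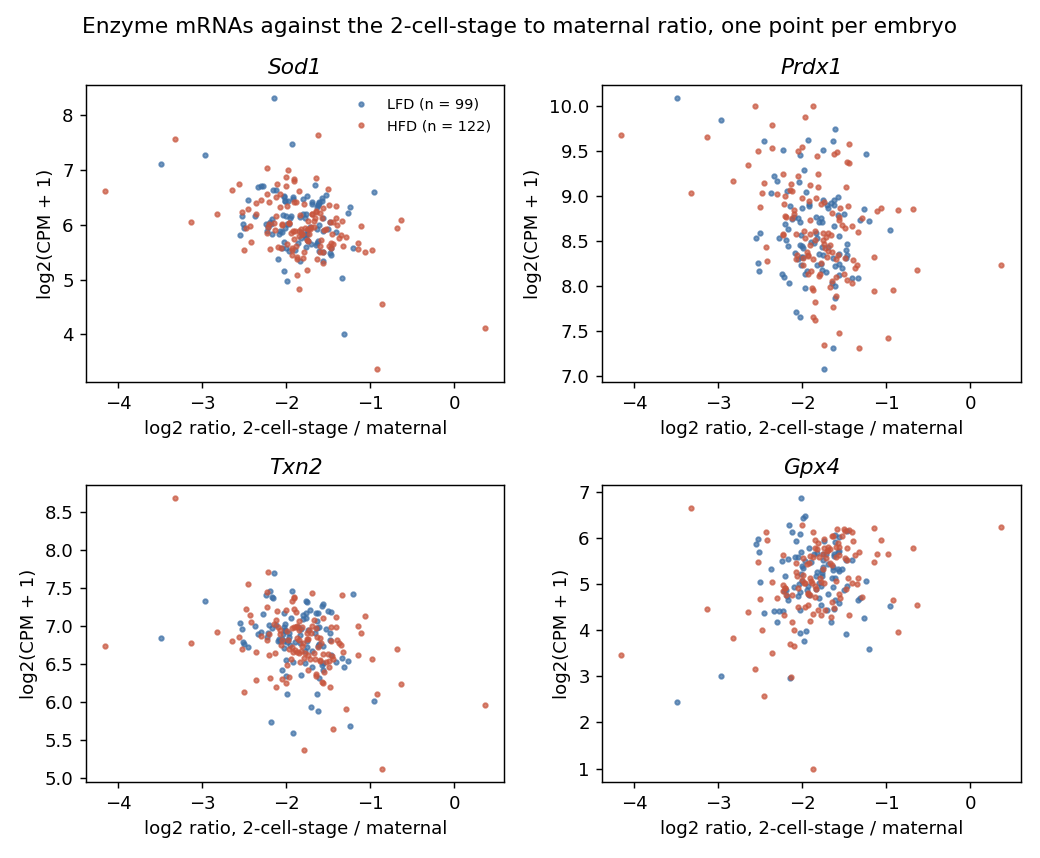
Level of Sod1, Prdx1, Txn2 and Gpx4, as log2(CPM + 1), against the log2 ratio of summed CPM of 2-cell-stage over maternal transcripts in all embryos (LFD blue, HFD red). Sod1, Prdx1 and Txn2 decline as the ratio rises and Gpx4 tends upward; the ratio spans -4.15 to 0.37.

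Neither slope was found to differ between the diets for any member. The test of the difference called 0 of 10 members for the mitochondrial level, where 0.182% of all genes were called, and 0 of 10 for the ratio, where 0.0203% were. At an unadjusted p under 0.05 there was 1 member in each test, Cat for the mitochondrial level (p = 0.025, adjusted p = 0.43 by edgeR) and Sod2 for the ratio (p = 0.027, adjusted p = 0.81), beside 9.78% and 5.86% of all genes. For the mitochondrial level the count of members was 5 without the 8 libraries with fewer than 15000 genes. The lowest adjusted p was then 0.27, for Sod1 by edgeR. That count was 1 without HFD embryo 28 and 0 without the 11 embryos high in macrophage markers. For the ratio it was 0 without HFD embryo 28, 1 without those 8 libraries and 1 without those 11 embryos. The shares over all genes were not counted in these settings. With SEs up to 0.75 and 0.77 for the sparse members, differences of that size were not detectable for them. Of the further antioxidant genes, 24 of 46 had a called slope on the ratio, or 52.2% beside 42.4% of all genes. Of these slopes 11 were positive and 13 negative, and 0 of the 46 genes differed between the diets on either measure.

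Among themselves the members formed no single block. Over all 45 pairs, with diet means subtracted, Pearson's r of log2 CPM ran from -0.50 to 0.66 with a median of 0.10, and 30 pairs were positive. These r values describe libraries that share normalization and sequencing depth. Gpx1 and Gpx4 were the closest pair (r = 0.66, with 0.72 in HFD and 0.58 in LFD embryos), and it was 0.65 without the 11 embryos high in macrophage markers. Sod1 and Prdx1 came next at 0.46. These pairs were opposed at 1 point, since Prdx1 had r = -0.47 with Gpx1 and -0.50 with Gpx4, and in LFD embryos alone -0.57 and -0.54. Cat stayed within 0.18 of 0 with every other member.

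**Figure D5:**
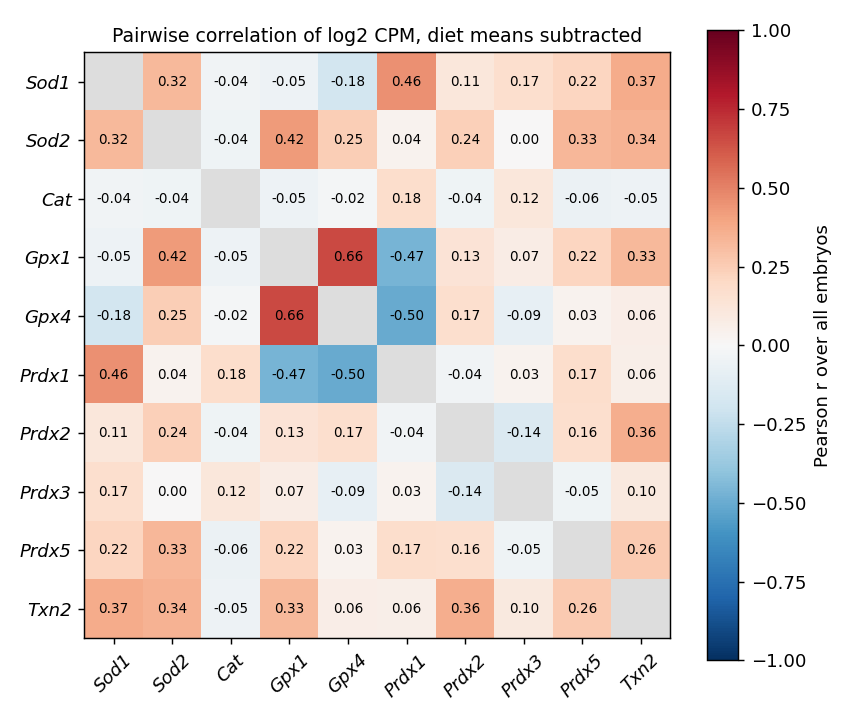
Pearson r of log2 CPM for each pair of members over all embryos, with diet means subtracted (red positive, blue negative, grey diagonal). The highest value is 0.66 for Gpx1 and Gpx4 and the lowest is -0.50 for Gpx4 and Prdx1.

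Against all 14819 other tested genes, the closest partners of the peroxidases were Ctsl (0.72), a lysosomal protease, and Gm11517 (0.72) for Gpx1, and the ribosomal protein gene Rps19 (0.76) and Tnfrsf12a (0.76) for Gpx4. Prdx1 was closest to Gyg (0.78), which primes glycogen, and Mgst3 (0.77), a microsomal glutathione transferase. Sod1 was closest to Dad1 (0.61) and Arpc3 (0.60), Sod2 to Dynll1 (0.61) and Siva1 (0.58), and Txn2 to Elof1 (0.67) and Mea1 (0.64). The sparse members had weak partners, Ctsd (0.35) and Creg1 (0.34) for Cat and Psmd1 (0.38) and 9530068E07Rik (0.35) for Prdx3. Ctsd is itself among the 16 macrophage markers.

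For Prdx2 and Prdx5 the closest partner was the gene that overlaps them on the opposite strand. Prdx2 had r = 0.84 with Rnaseh2a, with which it shares 177 exon bases, and 0.45 with the next gene, C87436. Prdx5 had r = 0.83 with Trmt112, with which it shares 409 exon bases or 19.1% of its own. The count ratio of neighbour to member ran from 0.0861 to 0.174 for Rnaseh2a and from 0.958 to 2.22 for Trmt112. Smart-seq2 does not mark the strand of a read, so reads in the shared bases cannot be told apart between the genes of a pair, and the levels of Prdx2 and Prdx5 are uncertain to that extent. The table also lists processed copies of Prdx1, Prdx2 and Gpx4, the highest of which had a median of 1.24 CPM (Gpx4-ps2), and reads shared with such copies make these levels uncertain too.

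Promoters were set beside the called pair that fell most with the ratio, Prdx1 and Sod1, and the closest pair, Gpx1 and Gpx4. All 10 members had a RefSeq start in build GRCm38.p6, with 13 starts in all because Gpx4 has 4. In the 250 bases before the start, the letters TGACNNNGC, a core that Nrf2-type factors are known to bind, were searched on both strands. They occurred at 2 of 10 members, Prdx1 and Sod1, and in 10.2% of all 32851 windows of the same length. GGGCGG, the core of a GC box, occurred at 8 of 10 members and in 32.7% of windows, and TATAAA at 3 of 10 and in 12.4%. A member counted with a match at any of its starts, whereas the shares are over single windows, so these are unlike measures. Each sequence below is given from RefSeq, 5′ to 3′ on the plus strand. It stops before the first base of its window that is exon of the gene in the count table. Capitals mark the TGACNNNGC match, which reads as its reverse complement on this strand in both promoters. For Gpx4 the stretch before the start at 80053565 is shown, which lies inside the gene as counted, since that begins at 80047166.
Prdx1, chr4:116685349-116685543, GRCm38.p6, plus strand: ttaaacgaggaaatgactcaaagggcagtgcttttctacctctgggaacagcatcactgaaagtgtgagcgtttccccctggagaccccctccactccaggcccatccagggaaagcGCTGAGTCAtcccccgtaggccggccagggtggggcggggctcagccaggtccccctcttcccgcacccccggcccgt
Sod1, chr16:90220512-90220753, GRCm38.p6, plus strand: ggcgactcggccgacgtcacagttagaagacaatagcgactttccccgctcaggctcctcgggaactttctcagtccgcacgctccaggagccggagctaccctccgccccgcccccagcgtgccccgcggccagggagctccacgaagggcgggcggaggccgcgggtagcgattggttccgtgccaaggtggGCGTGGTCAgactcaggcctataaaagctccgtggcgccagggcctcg
Gpx1, chr9:108338830-108338902, GRCm38.p6, plus strand: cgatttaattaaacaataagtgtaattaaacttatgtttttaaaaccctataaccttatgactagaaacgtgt
Gpx4, chr10:80053315-80053487, GRCm38.p6, plus strand: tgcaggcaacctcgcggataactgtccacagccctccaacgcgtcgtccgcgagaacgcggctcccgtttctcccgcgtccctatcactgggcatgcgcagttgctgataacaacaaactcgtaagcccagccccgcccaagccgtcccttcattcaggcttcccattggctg
The match begins 133 bases before the RefSeq start of Prdx1 and 56 bases before that of Sod1, and the Gpx1 and Gpx4 stretches hold none. No match says only that these letters are not in the window, and no binding was measured here.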

How the data were processed

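Smart-seq2 libraries, PCR copies of RNA with a poly(A) tail, came from 221 single early 2-cell embryos, 122 HFD and 99 LFD. The authors deposited unnormalized counts for each gene. According to the study's methods and processing notes, adaptors were removed with Trim Galore 0.6.6 and reads were aligned with STAR 2.7.10a to GRCm38 with the mitochondrial sequence of the ST line. Per the file headers, featureCounts 2.0.3 summed exons of Ensembl release 102 genes with the strand setting at 2. Of the counts above 0 of the members, 66.6% were even. Reads carry no molecular identifiers, so precision was taken from the spread between embryos and not from counting error. Where reads fit several places, the handling is not given in the sources used here.

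Embryos were grouped by the diet in their titles. The main test was edgeR's 2-sided quasi-likelihood test (version 4.0.16, R 4.3.3) after filterByExpr by diet and TMM scaling, with an FDR threshold of 0.05 over all genes tested. SEs were computed from the estimate and the F statistic, and 95% intervals as 1.96 SEs either side. Slopes were fitted on log2 summed CPM of gene lists (0.5 added to a sum) with the diet as a covariate, leaving the listed genes out. Levels are counts in each 1000000 of a library, and correlations used TMM log2 CPM with a prior count of 2. limma 3.58.1 and DESeq2 1.42.0 were alternatives. Python 3.11.15 with numpy 2.4.6, pandas 2.3.3 and matplotlib 3.10.9 served for other steps, and the fits were tested on simulated data. Transcript lengths came from GENCODE annotation of GRCm38. The members and gene lists were chosen with earlier results of these data known. Named besides the members are the 6 further antioxidant genes with the smallest p for the diet, and for each member the 2 genes with the highest correlation, of which 1 is not reported here.

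Replicate numbers are shared between the diets, 94 numbers in all. Same-numbered embryos deviated from their group means with a median correlation of 0.02 (-0.53 to 0.53), above 0.1 in 31 of 94 pairs, so the numbers were not taken to pair embryos.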

Additional observations from a re-analysis of the deposited data

How the results depend on the processing

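No alternative called a member between the diets. Sign changes without a call were 0.0075 for Sod1, 0.016 for Prdx5 and 0.017 for Txn2 without libraries of fewer than 15000 genes, -0.047 for Gpx4 and -0.032 for Prdx3 with the macrophage level as a covariate, -0.029 for Gpx4 without the 11 embryos highest in it, -0.17 and -0.18 for Prdx3 in limma-voom without and with number ranges as a random effect, 0.0091 for Prdx5 with number ranges as a fixed term, and 0.071 for Txn2 without HFD embryos 31 to 70. Leaving out single embryos moved the log2 ratio of mean CPM of Prdx3 between -0.062 and 0.065, negative without HFD embryo 78. Fth1 stood at -0.016 and -0.0078 with the macrophage covariate and without the 11 embryos. The further antioxidant genes called by diet numbered 2 with DESeq2 and without libraries with few genes, 3 with number ranges as a fixed term and without HFD embryos 31 to 70, 4 with no filter, and 0 in both limma-voom fits and both macrophage settings. All genes called by diet numbered 80 with random number ranges, 175 without HFD embryos 31 to 70, 560 without libraries with few genes, 594 with fixed number ranges and 7030 with no filter. The cause was not tested.

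The fit with the replicate number as a block used the 94 shared numbers and called 0 members, 0 further antioxidant genes and 496 genes in all. The same embryos without the block gave 0, 2 and 627. Prdx5 stood at 0.023 with and 0.020 without the block and Txn2 at 0.0048 without the block, and 1 of 94 HFD embryos correlated best with its own number.

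Slopes on the mitochondrial level kept their sign for all members in all alternatives run. With number ranges as a term 5 members and 4281 genes in all were called. HFD embryos alone gave 7 members and 3260 genes, and LFD embryos alone 6 members and 2937 genes. On the ratio, LFD embryos alone gave 2 members and 2004 genes. Signs turned for Sod2 (0.0072) and Prdx5 (0.029) in LFD embryos alone, Prdx5 without the 11 embryos (0.0088) and without HFD embryo 28 (0.074, the range without single embryos being -0.016 to 0.074), Cat with number ranges (-0.18), and Prdx2 in HFD embryos alone (-0.012), with the number of genes as a covariate (-0.0030) and without libraries with few genes (-0.00083). Of 651 alternative values, 567 were taken as unchanged. For fold changes and slopes of single genes this means that direction and call were kept. For log2 ratios of mean CPM, which have no call, it means direction alone, and for counts a number close to the main one. Depth limits Cat and Prdx3, whose counts were 0 in many embryos.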
